A study of Mus musculus with 24 samples.

Results

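The subunits of the proteasome were followed in the lacrimal glands of female mice of the MRL/lpr and NOD strains that received placebo or testosterone (T). Every probe whose annotated symbol starts with Psma, Psmb, Psmc, Psmd or Psme and a number was taken, which gave 115 probes of the 40130 on both array platforms. Of these, 38 lay on CodeLink (CL) and 77 on Affymetrix (Affy) arrays. They stood for 44 genes, where 14182 genes had a probe with 1 annotated symbol in the series. Of the genes taken 42 were counted as subunits by their symbols, 36 of them on both platforms. Whether each is a part of the mature proteasome was not checked. The interacting proteins Psmc3ip and Psme3ip1 share the name stem but are not subunits. A subunit gene was represented on each platform by its brightest probe. The interferon-induced subunits Psmb8, Psmb9, Psmb10, Psme1 and Psme2 were set against all others, 32 on CL and 37 on Affy.

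The study asked how androgen treatment alters gene expression in the lacrimal glands of 2 mouse models of the autoimmune gland disease of Sjögren's syndrome. There were 4 groups, MRL/lpr with placebo, MRL/lpr with T, NOD with placebo and NOD with T, each of 3 pools of glands. All mice were female and carried a pellet under the skin, of vehicle alone or with 10 mg of T. MRL/lpr mice were 17 to 18 weeks old at implantation and NOD mice 21 weeks. The sample labels give 18 days of treatment in MRL/lpr and 21 days in NOD, whereas the methods give 20 to 21 days for both. A pool held glands of 6 MRL/lpr mice or of 2 to 4 NOD mice. Strain therefore cannot be told apart from age, pool size and, if the labels hold, length of treatment. MRL/lpr mice carry the lpr mutation of Fas, and no group of non-autoimmune mice was analysed here.

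The proteasome degrades ubiquitin-tagged proteins in a barrel-shaped core of alpha and beta rings, capped by a regulatory particle of ATPases (Psmc genes) and non-ATPase subunits (Psmd genes). Psmb5, Psmb6 and Psmb7 carry the peptidase sites of the standard core. Interferon-gamma induces Psmb8, Psmb9 and Psmb10, which take their places in newly built cores and form the immunoproteasome, and Psme1 and Psme2, which form an alternative cap. These induced subunits are abundant in cells of the immune system and favour peptides that bind MHC class I.

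CL signals are given as multiples of the array median and Affy signals after scaling each array to a trimmed mean of 500. Signals below a floor of 0.5 on CL and 70.5 on Affy were set to it. Pools of a group correlated at 0.932 to 0.982 on CL and 0.925 to 0.989 on Affy over all probes. The number of arrays, 3 in each group, limits the precision. 2 pools stood apart from the others of their groups. MRL/lpr placebo pool 1 held a high level of salivary gland markers (a summed Affy signal of 63306, against 2055 in the next highest pool of any group). NOD T pool 1 was much dimmer on Affy than NOD T pools 2 and 3, with a scale factor of 11.6 against 3.33 and 3.54. Factors were 6.06 to 11.1 in NOD placebo, 11.1 to 15.5 in MRL/lpr placebo and 15.8 to 22.6 in MRL/lpr T pools. NOD T pools 2 and 3 were thus the brightest of all Affy arrays, and fits without NOD T pool 1 rest on them.

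In NOD lacrimal glands most induced subunits rose with T, while few other subunits changed. Differences were called at an adjusted p under 0.05 (limma, Benjamini-Hochberg over all probes tested). On CL, 3 of 4 induced subunits rose and none fell, and none of the 32 other subunits rose while 4 fell. Over all CL probes 7.87% were called higher and 8.60% lower. On Affy, 4 of 5 induced subunits rose, 1 of 37 others rose and 5 fell, against 5.53% of all Affy probes called higher and 3.69% lower. The median log2 difference of the induced subunits was 2.08 on CL and 1.85 on Affy. For the other subunits it was -0.37 and -0.40, beside -0.10 and 0.00 over all probes tested. Of the other subunits, 26 of 32 on CL and 31 of 37 on Affy had a negative log2 difference, against 58.7% and 48.8% of all probes. With Affy signals as deposited, where the median of all probes shifted to 0.62, the median of the other subunits turned to 0.32, which was still 0.30 below that of all probes, and that of the induced subunits was 2.60. In NOD with T 8 of 12 leukocyte markers also rose on CL and 12 of 17 on Affy, and in whole glands fewer cells of a type and less RNA per cell cannot be told apart. NOD placebo pools are shared by this comparison, by the strain comparison under placebo and by the test of the difference between strains.

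Psmb8 replaces Psmb5, the chymotrypsin-like site of the core. Its CL signal was 6.27, 5.80 and 6.22 in the NOD placebo pools and 16.96, 42.9 and 46.6 in the NOD T pools. No T pool fell within the placebo range, and T pool 1 was the lowest of its group. T raised Psmb8 5.31-fold on CL (log2 difference 2.41 ± 0.35, SE, adjusted p = 0.000486). On Affy the NOD placebo pools read 336, 489.6 and 381 and the T pools 1156, 3565 and 2965. The groups again did not overlap, and the increase was 5.80-fold (log2 difference 2.54 ± 0.33, SE, adjusted p = 6.2e-05). Without NOD T pool 1 the log2 difference was 2.88 on CL and 3.03 on Affy.

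Psmb9, which replaces the caspase-like Psmb6, showed the largest T effect of any subunit in NOD mice on both platforms. Its CL signal was 1.64, 1.17 and 1.63 with placebo and 6.87, 13.6 and 11.8 with T. Affy signals were 161, 135 and 181 with placebo and 1875, 1841 and 1707 with T. The T pools on Affy were close to each other and far above placebo. The increase was 7.07-fold on CL (log2 difference 2.82 ± 0.33, SE, adjusted p = 0.000107) and 11.5-fold on Affy (log2 difference 3.52 ± 0.22, SE, adjusted p = 1.35e-08).

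Psmb10 takes the place of the trypsin-like Psmb7. In NOD mice it read 3.54, 3.62 and 3.50 with placebo and 8.11, 14.6 and 14.5 with T on CL. The placebo pools were almost identical and all T pools exceeded them. T raised Psmb10 3.37-fold on CL (log2 difference 1.75 ± 0.26, SE, adjusted p = 0.000516). On Affy, placebo pools read 255, 253 and 334 and T pools 858, 1238 and 953, an increase of 3.61-fold (log2 difference 1.85 ± 0.26, SE, adjusted p = 0.000162).

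Psme1 encodes the alpha subunit of the induced cap. Its CL signal in NOD mice was 6.47, 6.36 and 7.81 with placebo and 7.30, 14.8 and 13.8 with T, so that T pool 1 fell among the placebo pools. The CL difference did not pass the test (log2 difference 0.74 ± 0.27, SE, adjusted p = 0.0877), but did without NOD T pool 1 (log2 difference 1.06, adjusted p = 0.0074). On Affy the values were 1070.3, 1035 and 1311 with placebo and 2460.4, 3651 and 3079 with T. These groups did not overlap and T raised Psme1 2.67-fold (log2 difference 1.42 ± 0.20, SE, adjusted p = 0.000119).

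The beta subunit of that cap was read on Affy by a probe set annotated to both Psme2 and Psme2b, so its signal cannot be assigned to either gene, and there was no CL probe. It read 745, 1116 and 926 in NOD placebo pools and 946, 2637 and 2044 in NOD T pools. T pool 1 overlapped the placebo pools and the other T pools lay above them. The difference did not pass the test (log2 difference 0.91 ± 0.29, SE, adjusted p = 0.0609). Without T pool 1 it was 1.34 and passed (adjusted p = 0.000121).

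**Figure D1:**
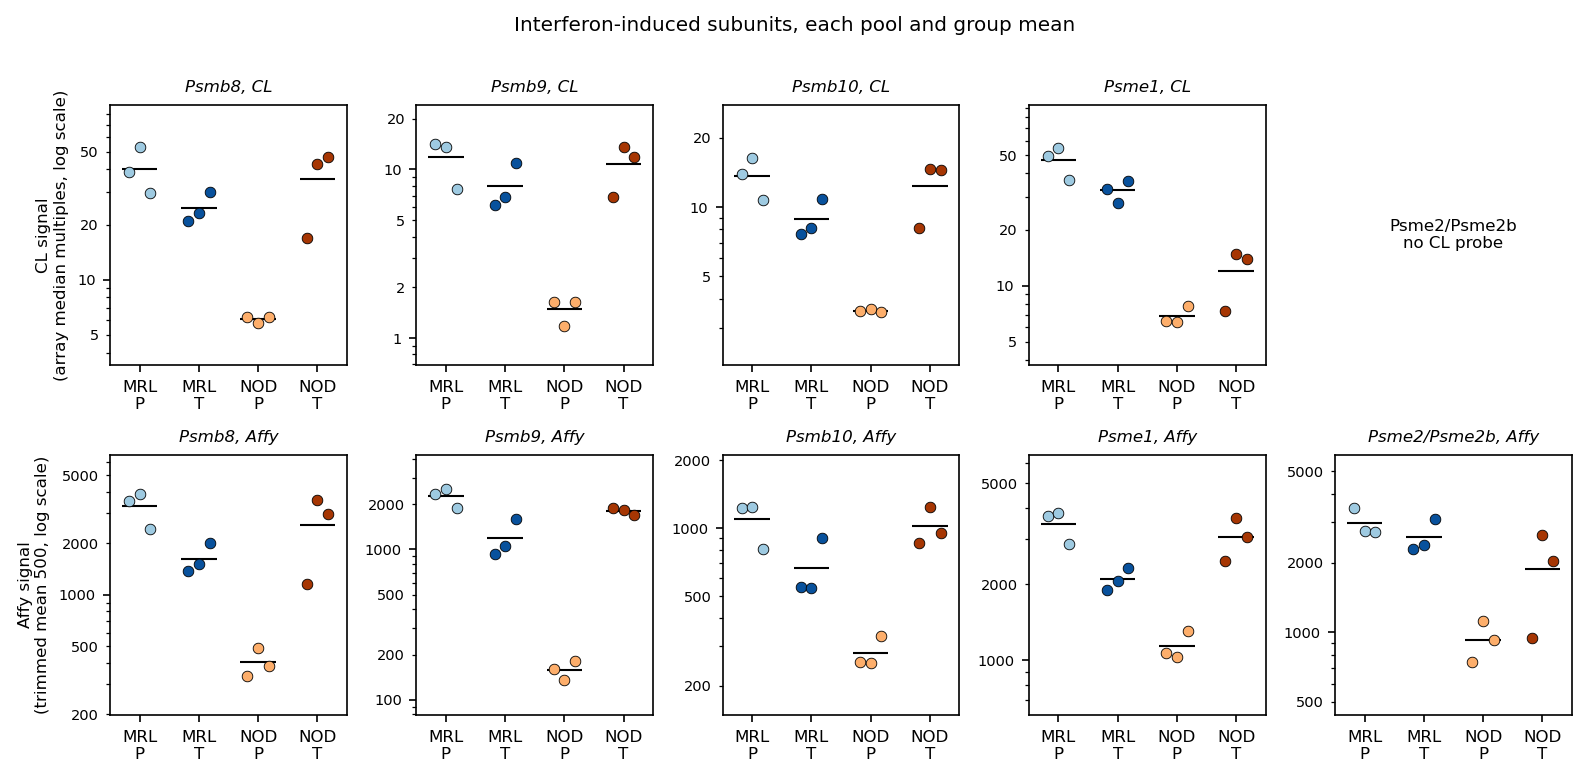
Array signal (log axis; CL in multiples of the array median, Affy after scaling to a trimmed mean of 500) of the 5 induced subunits in each of the 3 pools of MRL/lpr and NOD mice with placebo (P) or T, with a line at the group mean. NOD placebo pools are the lowest group in every panel; for Psmb9 on Affy they average 159 against 1807 with T.

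Of the induced catalytic subunits, Psmb8 and Psmb9 lie beside genes of peptide transport. On mouse chromosome 17, Psmb9 neighbours Tap1, and Psmb8 lies between Tap1 and Tap2, both of which encode the transporter that carries peptides into the endoplasmic reticulum. Psme1 and Psme2 flank Emc9 on chromosome 14. Promoter windows from RefSeq (GRCm38.p6), of 250 bases before and 50 after the start, were found for 36 of the subunit genes, Psme2b included. They are shown for Psmb8, Psmb9 and Psme1, the induced genes whose windows hold a searched motif or reach the start of Tap1. The window of Psmb8 is chr17:34197945-34198244 (+ strand) with a gamma-activated site in capitals, beginning 97 bases before the start. That of Psmb9 is chr17:34187281-34187580 (- strand), in which capitals mark the 225 bases between the start of Psmb9 and that of Tap1, transcribed the other way. That of Psme1 is chr14:55578244-55578543 (+ strand), with the reverse complement of the core of an interferon-stimulated response element in capitals, 9 bases after the start.
Psmb8: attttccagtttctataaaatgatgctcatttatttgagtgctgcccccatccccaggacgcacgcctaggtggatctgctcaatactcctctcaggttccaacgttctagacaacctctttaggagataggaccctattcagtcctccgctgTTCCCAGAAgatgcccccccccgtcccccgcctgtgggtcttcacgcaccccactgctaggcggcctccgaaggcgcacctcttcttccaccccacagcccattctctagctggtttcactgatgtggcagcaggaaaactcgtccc
Psmb9: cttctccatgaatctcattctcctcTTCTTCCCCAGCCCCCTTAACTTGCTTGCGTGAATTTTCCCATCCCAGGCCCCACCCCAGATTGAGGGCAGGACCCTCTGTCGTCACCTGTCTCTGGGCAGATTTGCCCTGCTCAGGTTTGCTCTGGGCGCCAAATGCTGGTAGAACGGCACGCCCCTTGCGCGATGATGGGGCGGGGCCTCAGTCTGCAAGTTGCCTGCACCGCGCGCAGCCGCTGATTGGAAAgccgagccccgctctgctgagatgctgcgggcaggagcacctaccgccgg
Psme1: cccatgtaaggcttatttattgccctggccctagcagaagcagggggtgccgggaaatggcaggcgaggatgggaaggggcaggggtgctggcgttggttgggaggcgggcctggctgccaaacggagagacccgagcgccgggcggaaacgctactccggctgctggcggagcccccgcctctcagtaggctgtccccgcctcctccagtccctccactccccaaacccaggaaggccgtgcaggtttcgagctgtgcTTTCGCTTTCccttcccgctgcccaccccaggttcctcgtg
The letters searched on both strands were GAAA, any 2 bases and GAAA for the interferon-stimulated response element core and TTCNNNGAA for the gamma-activated site. The former occurred in 3.44% and the latter in 8.3% of 32851 promoter windows. Among the subunit genes, the former was also in the windows of Psmb3, Psmd4 and Psmd9, and the latter in that of Psmd2. Neither was in the windows of Psmb9, Psmb10 or Psme2. A match is a run of letters and was not tested as a binding site.

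In MRL/lpr glands the induced subunits had lower signals with T, and 2 of them passed the test on Affy. On CL all 4 had a negative log2 difference, between -0.69 and -0.53, and none passed the test. No subunit of any kind was called on CL in MRL/lpr mice, where 6.89% of all probes were called higher and 5.65% lower. On Affy all 5 were below 0, between -1.01 and -0.20. Of them Psmb9 and Psme1 fell, beside Psmd2 and Psmd12 among the other 37 subunits, and no subunit rose. Over all Affy probes 3.32% were called higher and 3.58% lower.

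Affy signals of Psmb9 were 2346, 2515 and 1900.2 in MRL/lpr placebo pools and 933, 1054 and 1592 in MRL/lpr T pools. No T pool reached the placebo range, and the signal was 1.93-fold lower (log2 difference -0.95 ± 0.22, SE, adjusted p = 0.0156). Psme1 read 3707, 3812 and 2870.2 with placebo and 1889, 2063 and 2326 with T, also without overlap (log2 difference -0.72 ± 0.20, SE, adjusted p = 0.0331). Without MRL/lpr placebo pool 1 the differences were -0.91 for Psmb9 (adjusted p = 0.0698) and -0.67 for Psme1 (adjusted p = 0.126). Both calls were likewise lost without MRL/lpr placebo pool 2 or MRL/lpr T pool 1 or 2, and over all alternatives the differences ranged from -1.43 to -0.79 for Psmb9 and from -1.20 to -0.65 for Psme1. Psmb8 on Affy read 3554, 3877 and 2439 with placebo and 1368, 1511 and 2003 with T. These pools did not overlap either, but the difference missed the threshold (log2 difference -1.01 ± 0.33, SE, adjusted p = 0.0759). With the same difference it passed when NOD T pool 1 was left out of the fit (adjusted p = 0.00227). On CL, Psmb8 read 38.5, 52.9 and 29.9 with placebo and 20.9, 23.1 and 30.2 with T, with overlap (log2 difference -0.69 ± 0.35, SE, adjusted p = 0.256). Psmb10 differed by -0.62 on CL and by -0.73 on Affy (adjusted p = 0.159 and 0.113), with overlapping pools. The Psme2 and Psme2b probe set differed by -0.20 (adjusted p = 0.739).

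The T response itself differed between strains for the induced catalytic subunits. The interaction, the T effect in NOD minus that in MRL/lpr, was called for Psmb8, Psmb9 and Psmb10 on CL and for these and Psme1 on Affy. No other subunit was called by its brightest probe. Over all probes, 3.88% were called higher and 4.16% lower on CL, and 3.00% higher and 0.917% lower on Affy. For Psmb9 the interaction was 3.37 on CL and 4.46 on Affy (adjusted p = 0.00116 and 2.52e-07). For Psmb8 it was 3.10 (adjusted p = 0.00247) and 3.54 (adjusted p = 0.000188). That of Psmb10 was 2.37 (adjusted p = 0.00188) and 2.58 (adjusted p = 0.000437). Psme1 had 1.27 on CL (adjusted p = 0.0654), which is not past the threshold but passed without NOD T pool 1 (adjusted p = 0.00767). Its Affy interaction was 2.14 (adjusted p = 0.000171). The Psme2 and Psme2b probe set had 1.11 (adjusted p = 0.168), and without NOD T pool 1 it was 1.54 (adjusted p = 0.00104). The median interaction of the other subunits was -0.27 on CL and -0.17 on Affy.

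**Figure D2:**
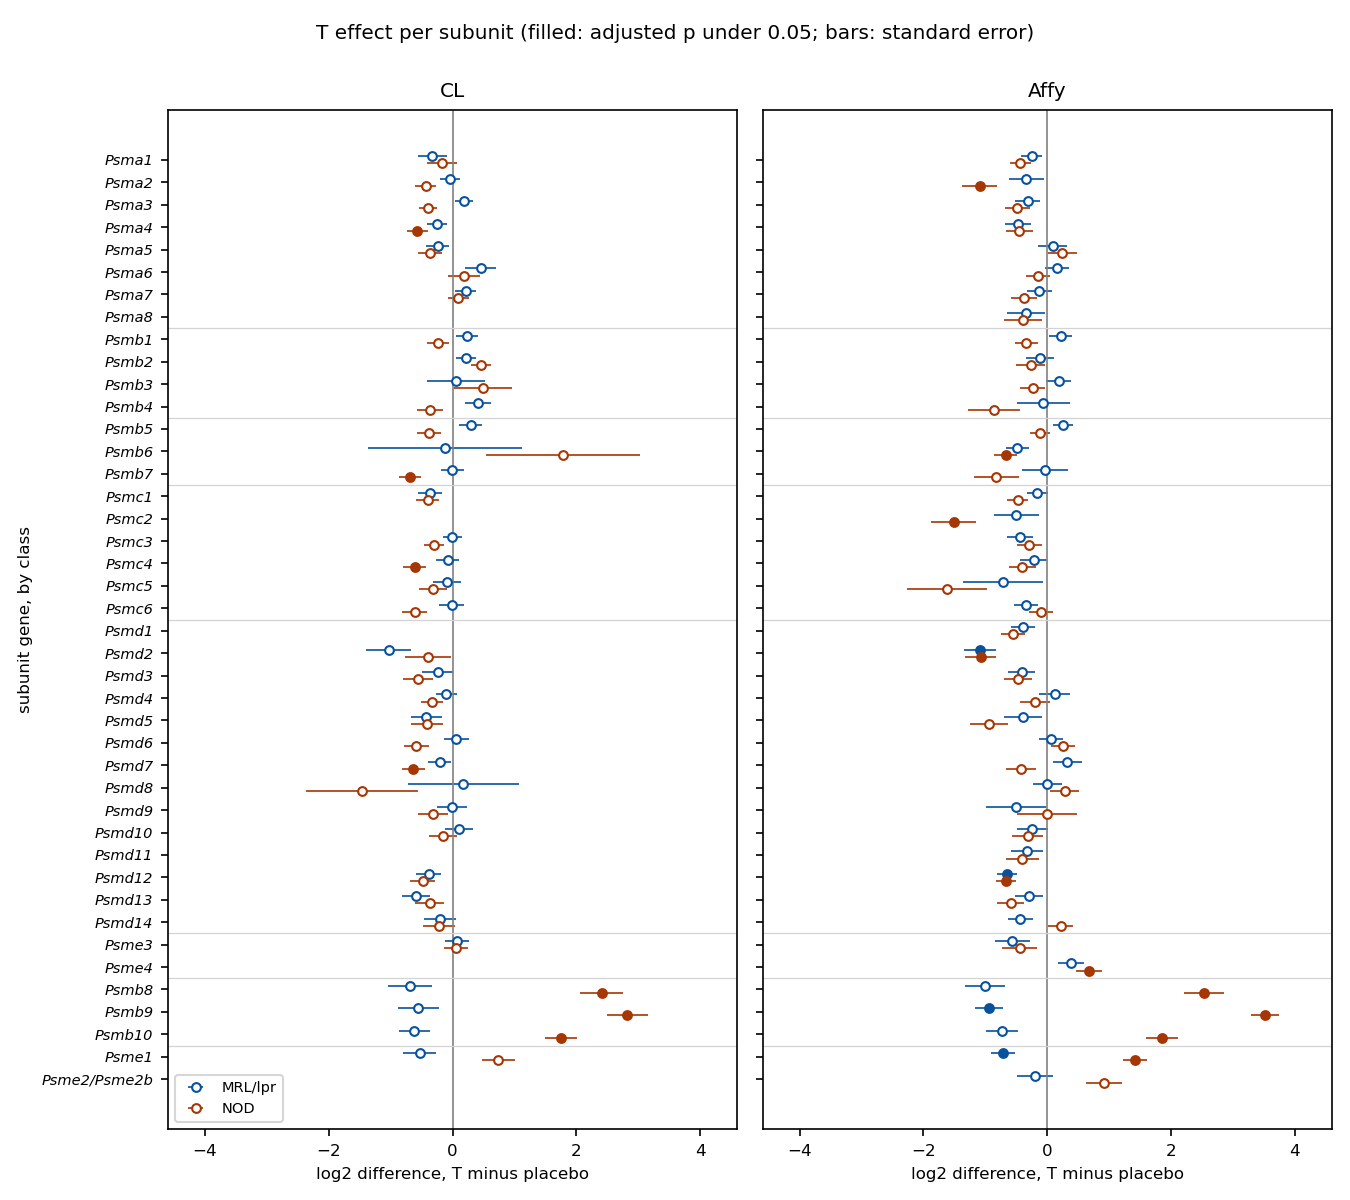
T effect on each subunit gene in MRL/lpr and NOD mice, by class, as the log2 difference T minus placebo (x axis) with its standard error; filled points passed an adjusted p of 0.05. In NOD the induced subunits at the bottom lie to the right (Psmb9 at 2.82 on CL and 3.52 on Affy) and most other subunits just left of 0.

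Under placebo, all induced subunits were lower in NOD than in MRL/lpr glands, and no other subunit was called by its brightest probe. On CL this was 4 of 4 induced and 0 of 32 other subunits, against 4.66% of all probes called higher and 4.88% lower in NOD. On Affy it was 5 of 5 and 0 of 37, against 1.78% higher and 3.56% lower. No induced subunit had overlapping pools on either platform, and all NOD pools lay below all MRL/lpr pools for 14.0% of all probes on CL and 14.5% on Affy. Psmb9 was 7.77-fold lower on CL (log2 difference -2.96 ± 0.33, SE, adjusted p = 0.000177) and 14.2-fold lower on Affy (log2 difference -3.83 ± 0.22, SE, adjusted p = 3.34e-09). Psmb8 was 6.45-fold lower on CL and 8.13-fold lower on Affy (adjusted p = 0.000518 and 1.01e-05). For Psmb10 the folds were 3.80 on CL and 3.86 on Affy (adjusted p = 0.000595 and 0.00013). Psme1 was 6.79-fold lower on CL and 3.03-fold lower on Affy (adjusted p = 6.06e-05 and 4.09e-05). The Psme2 and Psme2b probe set was 3.23-fold lower (adjusted p = 0.00135). The other subunits had a median of 0.15 on CL and 0.06 on Affy.

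Under T the strains differed in fewer subunits. Psmb8, Psmb9 and Psmb10 were not called on either platform, with log2 differences NOD minus MRL/lpr of 0.41, 0.42 and 0.44 on CL and 0.52, 0.64 and 0.63 on Affy. Psme1 went opposite ways on the 2 platforms. On CL it read 33.2, 27.7 and 36.6 in MRL/lpr T pools against 7.30, 14.8 and 13.8 in NOD T pools, 2.82-fold lower in NOD (log2 difference -1.50 ± 0.27, SE, adjusted p = 0.00288), and was the only subunit called on that platform. On Affy it read 1889, 2063 and 2326 in MRL/lpr and 2460.4, 3651 and 3079 in NOD (log2 difference 0.54 ± 0.20, SE, adjusted p = 0.0908). Every NOD pool was the lower on CL and the higher on Affy, although the RNA came from the same pools. No subunit gene was called on Affy by its brightest probe. Over all probes 5.57% were called higher and 6.85% lower on CL, and 5.39% and 5.22% on Affy. Without NOD T pool 1, Psmb8 and Psme1 were called higher in NOD on Affy, at 1.02 (adjusted p = 0.00472) and 0.69 (adjusted p = 0.0125).

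**Figure D3:**
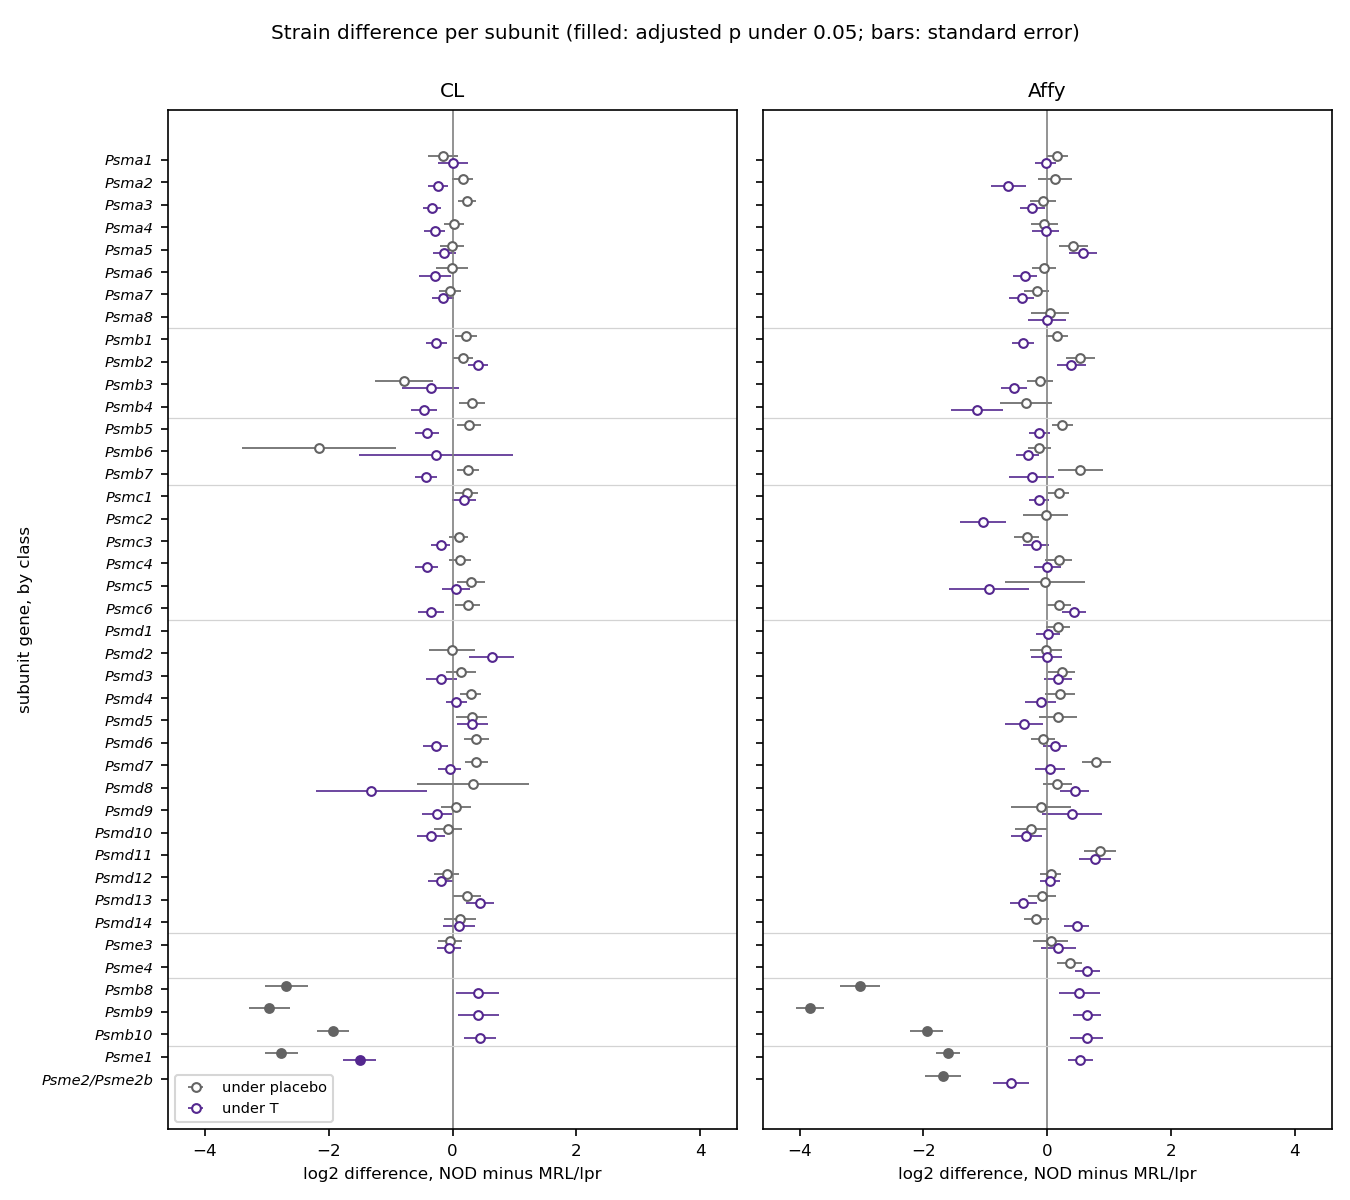
Difference between strains for each subunit gene under placebo and under T, as the log2 difference NOD minus MRL/lpr (x axis) with its standard error; filled points passed an adjusted p of 0.05. The induced subunits lie far left of 0 under placebo (Psmb8 at -2.69 on CL and -3.02 on Affy) and closer to it under T, where only Psme1 on CL, at -1.50, is filled.

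The standard catalytic subunits that Psmb8, Psmb9 and Psmb10 replace were not called higher with T in NOD on either platform. Psmb5 read 3678, 3577 and 3914 with placebo and 3071, 3718 and 3522 with T on Affy, with overlap (log2 difference -0.12 ± 0.17, SE, adjusted p = 0.784). On CL it read 39.2, 39.6 and 49.9 and 30.6, 30.9 and 36.9 (log2 difference -0.38 ± 0.19, SE, adjusted p = 0.211), where all T pools lay below placebo. Psmb6 fell on Affy, from 4018, 4056 and 3984 to 3094, 2434 and 2147 (log2 difference -0.67 ± 0.19, SE, adjusted p = 0.0296), whereas with signals as deposited its log2 difference was 0.08. The CL signal of Psmb6 was 50.4, 53.1 and 0.694 with placebo and 38.7, 44.6 and 43.3 with T. NOD placebo pool 3 was near the floor there, and set the sign of the CL difference (log2 difference 1.78 ± 1.24, SE, adjusted p = 0.386). No NOD placebo pool was low for Psmb6 on Affy. Psmb7 fell on CL, from 44.6, 48.6 and 46.0 to 23.0, 29.0 and 35.6 (log2 difference -0.69 ± 0.18, SE, adjusted p = 0.0217, and -0.53, adjusted p = 0.0748, without NOD T pool 1). On Affy it read 5743, 5521 and 9598 and 1644, 6314 and 5298, and the groups overlapped (log2 difference -0.82 ± 0.36, SE, adjusted p = 0.199). In MRL/lpr mice none of these 3 genes was called. Their log2 differences were 0.29, -0.12 and -0.0047 on CL and 0.25, -0.48 and -0.04 on Affy for Psmb5, Psmb6 and Psmb7.

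**Figure D4:**
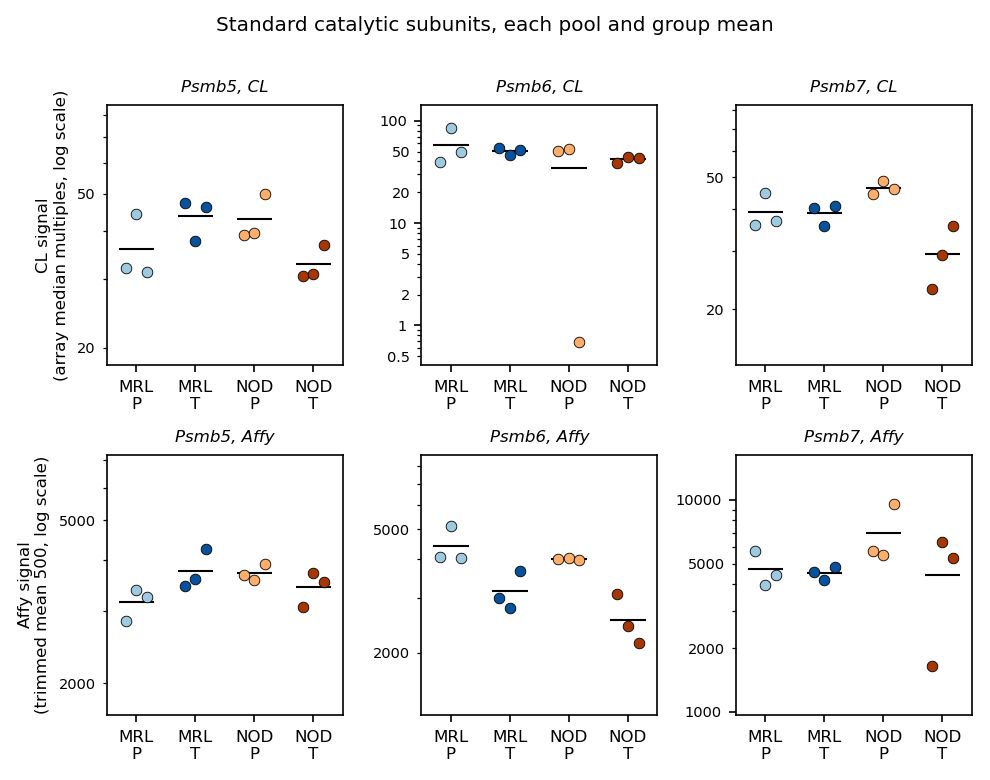
Array signal (log axis; CL in multiples of the array median, Affy after scaling to a trimmed mean of 500) of the standard catalytic subunits Psmb5, Psmb6 and Psmb7 in each pool, with a line at the group mean; P is placebo. All NOD T pools lie below the NOD placebo pools for Psmb5 and Psmb7 on CL and for Psmb6 on Affy. Single pools also stand apart, such as NOD placebo pool 3 at 0.694 for Psmb6 on CL.

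The change of each induced subunit against the standard subunit it replaces was taken within every array, as a log2 ratio relative to the mean of the MRL/lpr placebo pools. It is given as a description, because it combines probes of unknown relative sensitivity and only its change can be read. Psmb8 over Psmb5 stood at -2.95 ± 0.18 in NOD placebo pools and -0.16 ± 0.73 in NOD T pools on CL (SD, n = 3). The corresponding Affy values were -3.26 ± 0.31 and -0.61 ± 0.73. The ratio in NOD thus moved with T by 2.79 and 2.65 toward the level of MRL/lpr placebo. Psmb10 over Psmb7 moved by 2.44 on CL and 2.67 on Affy. Psmb9 over Psmb6 moved by 4.19 on Affy. On CL it moved by 1.04, since NOD placebo pool 3 with its low Psmb6 signal stood at 3.50 while the lowest placebo pool lay at -3.22. In MRL/lpr mice the mean of each of the 3 ratios dropped by 0.98, 0.43 and 0.61 on CL and by 1.26, 0.46 and 0.69 on Affy.

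The remaining subunits had smaller differences, mostly below 0 in NOD mice. Of the alpha ring, whose N-termini gate the core, 1 of 7 genes on CL and 1 of 8 on Affy fell with T. Over all probes 8.60% were called lower on CL and 3.69% on Affy. By sign alone, 5 and 7 alpha ring genes were below 0, against 58.7% and 48.8% of all probes. Psma4 fell on CL (log2 difference -0.57 ± 0.16, SE, adjusted p = 0.0331, and -0.55, adjusted p = 0.0769, without NOD T pool 1), and Psma2 on Affy, where it read 7384, 6746 and 6939 with placebo and 1724, 4468 and 4619.9 with T (log2 difference -1.09 ± 0.28, SE, adjusted p = 0.0178). NOD T pool 1 was by far the lowest for Psma2, and without it the log2 difference was -0.63 (adjusted p = 0.00592). The Psma2 call was lost in 9 of 24 alternatives, among them without NOD placebo pool 1, 2 or 3. The non-catalytic beta subunits Psmb1 to Psmb4 had no called gene, with medians of 0.11 on CL and -0.30 on Affy.

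The ATPases of the regulatory base unfold substrates. Of them, 1 of 5 on CL and 1 of 6 on Affy fell with T in NOD, against 8.60% and 3.69% of all probes. By sign alone, 5 of 5 and 6 of 6 were below 0, against 58.7% of all probes on CL and 48.8% on Affy. Psmc4 fell on CL from 27.4, 27.7 and 33.3 to 15.7, 19.8 and 22.8 (log2 difference -0.61 ± 0.18, SE, adjusted p = 0.0408, and -0.47, adjusted p = 0.133, without NOD T pool 1). Psmc2 fell on Affy, from 9767, 8274 and 9506 to 1291, 5069.6 and 5053 (log2 difference -1.51 ± 0.37, SE, adjusted p = 0.0132), and without NOD T pool 1 the difference was -0.86 (adjusted p = 0.00165). The Psmc2 call was lost in 6 of 24 alternatives, among them without NOD placebo pool 1 or 3. The largest difference of the class, -1.62 for Psmc5 on Affy, was not called (adjusted p = 0.148). It rested on NOD T pool 1 at 220.0 against 3266 and 2441 in the other T pools.

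The non-ATPase subunits hold the ubiquitin receptors, the deubiquitinase and the scaffold of the lid and base. In NOD, 1 of 12 Psmd genes fell with T on CL and 2 of 14 on Affy, against 8.60% and 3.69% of all probes. By sign alone, 12 of 12 and 10 of 14 were below 0, against 58.7% and 48.8% of all probes. Psmd2, a scaffold of the base, fell on Affy in both strains. It read 2712, 2683 and 3590.3 with placebo and 1528, 1588 and 1122 with T in MRL/lpr mice (log2 difference -1.09 ± 0.25, SE, adjusted p = 0.0137). In NOD mice it read 3209.9, 2982 and 2605 and 863, 1809 and 1714 (log2 difference -1.07 ± 0.25, SE, adjusted p = 0.0104). Neither pair of groups overlapped. In each strain the Psmd2 call was lost in 6 of 24 alternatives. Psmd12, a lid subunit, also fell on Affy in MRL/lpr (log2 difference -0.66 ± 0.16, SE, adjusted p = 0.0203) and NOD mice (log2 difference -0.66 ± 0.16, SE, adjusted p = 0.0141), where with signals as deposited the log2 difference was 0.09. On CL, Psmd2 differed by -1.03 in MRL/lpr (adjusted p = 0.0995) and -0.40 in NOD (adjusted p = 0.53), and Psmd12 by -0.39 (adjusted p = 0.257) and -0.48 (adjusted p = 0.129), none of them called. Psmd7, another lid subunit, fell on CL in NOD (log2 difference -0.63 ± 0.19, SE, adjusted p = 0.0365, and -0.51, adjusted p = 0.119, without NOD T pool 1). Psmd8 on CL read 25.4, 23.5 and 1.09 in NOD T pools, so that its difference of -1.46 came from pool 3 and was not called (adjusted p = 0.324).

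Of the other activators, 1 was called, on Affy. Psme3, which forms a nuclear cap, differed by 0.06 on CL and -0.44 on Affy (adjusted p = 0.893 and 0.431) with T in NOD. Psme4, which encodes a large single-chain activator, read 2666, 3113 and 3155 with placebo and 6527, 3918 and 4160.1 with T on Affy. Its brightest probe set was called higher (log2 difference 0.67 ± 0.21, SE, adjusted p = 0.0486), but the call was lost in 21 of 24 alternatives (log2 differences 0.31 to 1.43), and the other 2 Psme4 probe sets differed by 0.18 and 0.09, neither called.

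Under other scalings some of these decreases were no longer called. In NOD mice no subunit was called lower on CL after quantile normalization or normexp background correction, nor on Affy with signals as deposited, while 4 were called higher under each of these settings. On CL these included Psmb8, Psmb9 and Psmb10 but not Psme1, so a subunit other than the induced ones was among them. After quantile normalization on Affy, none of the 5 decreases was lost and 32 of 37 other subunits had a negative difference, with a median of -0.39. The CL calls of Psma4, Psmb7, Psmc4 and Psmd7 were lost without NOD T pool 1 and likewise without NOD T pool 2. On Affy 16 subunit genes were called without NOD T pool 1, 11 of them lower. None of the 4 genes that fell on CL in NOD mice was called on Affy. Of the 5 that fell on Affy, Psmc2 had no CL probe and none of the other 4 was called on CL. Over the 36 genes on both platforms, T effects in NOD correlated at r = 0.742. Over the 32 without the induced subunits they correlated at r = -0.109. Of these 32 genes 21 were negative on both platforms, and 26 were negative on CL whatever the Affy sign. The 32 include Psmb6 and Psmd8, whose CL differences rested on single pools. The correlations are across genes measured in the same pools, and genes are not independent replicates. For the T effect in MRL/lpr they were 0.692 and 0.577, and for the strain difference under placebo 0.858 and 0.264.

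Probe sets of the same gene disagreed in several cases on Affy, where 19 subunit genes had more than 1. For Psmd6, a less bright probe set read 91.1, 138 and 288 in MRL/lpr placebo pools and 3146, 3415 and 2329.7 in NOD placebo pools (log2 difference 4.25 ± 0.56, SE, adjusted p = 9.01e-05). The brightest Psmd6 probe set read 3864, 4189 and 3761 and 3745, 3668 and 3888 in the same pools (log2 difference -0.06 ± 0.19, SE, adjusted p = 0.949). The CL probe of Psmd6 differed by 0.38 (adjusted p = 0.299). A second Psmb4 probe set was 5.28-fold lower in NOD than in MRL/lpr mice under T (log2 difference -2.40 ± 0.48, SE, adjusted p = 0.00403), against -1.14 for the brightest (adjusted p = 0.1). A second Psmb3 probe set fell with T in NOD (log2 difference -1.21 ± 0.22, SE, adjusted p = 0.00176), against -0.23 for the brightest (adjusted p = 0.601). Both Psmc2 probe sets fell, the less bright by 0.99 on the log2 scale (adjusted p = 0.00597). Of the 77 Affy probes taken, 5 did not pass the filter on low values, and of the 38 CL probes 1 did not.

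A list of 25 genes of proteasome assembly, accessory proteins and control, which the symbol rule does not take, was also followed. In NOD with T, 1 of 14 measured above the filter on CL rose and 1 fell, against 7.87% and 8.60% of all probes. On Affy 2 of 18 rose and none fell, against 5.53% and 3.69% of all probes. The medians of the list were -0.20 on CL and -0.03 on Affy. Ufd1, a partner of the segregase Vcp, rose in both strains on both platforms, by 1.69 on CL and 1.34 on Affy in NOD and by 1.44 and 1.86 in MRL/lpr. The assembly chaperone Pomp, needed for maturation of the core, differed by -0.23 on CL and -0.04 on Affy in NOD, not called. Nfe2l1, which drives transcription of subunit genes when proteasomes are impaired, differed by 0.06 and 0.47, not called.

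Interferon-induced genes of class I peptide supply, from a list of 21, moved with the induced subunits. In NOD with T, 8 of 15 tested rose and 1 fell on CL (median 0.94), and 10 of 17 rose and 1 fell on Affy (median 1.26). Tap1 was near background in NOD placebo pools on CL and rose at least 2.06-fold there (adjusted p = 0.000245). On Affy, where 1 of 3 NOD placebo pools was below the floor, its log2 difference was 3.00 ± 0.39, SE, adjusted p = 7.62e-05. B2m, the light chain of MHC class I, rose by 2.22 on CL and 1.93 on Affy on the log2 scale. Ubd, an interferon-induced ubiquitin-like modifier that targets proteins to the proteasome, was also near background there on CL and rose at least 12.8-fold. On Affy it rose by 3.04 on the log2 scale, with 1 of 3 NOD placebo pools below the floor. Irf1, a transcription factor of these genes, rose by 1.58 on CL and 1.11 on Affy. Lap3, a peptidase, fell in NOD on both platforms (-1.68 and -1.45). In MRL/lpr mice 1 of 15 rose and 3 fell on CL, and none of 17 rose and 3 fell on Affy. Ifng did not pass the filter on either platform. Under placebo, 6 of 15 on CL and 8 of 17 on Affy were lower in NOD than in MRL/lpr, and 0 and 1 higher. Under T, 5 of 15 and 6 of 17 were higher in NOD and none lower, whereas no induced subunit was called higher.

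Leukocyte markers moved with the induced subunits as well, with T and between strains under placebo. Of 18 listed, 12 were on CL and 17 on Affy. With T in NOD 8 of 12 rose on CL and 12 of 17 on Affy, and none fell. In MRL/lpr mice 5 of 12 and 3 of 17 fell and none rose. Under placebo 4 of 12 and 8 of 17 were lower in NOD than in MRL/lpr. Under T 6 of 12 and 6 of 17 were higher in NOD and none lower. There, with all pools in the fit, no induced subunit was called higher, and Psme1 was called lower on CL. Their summed Affy signal was 9962 to 12885 in MRL/lpr placebo pools, 6990 to 8766 with T, 3527 to 4823 in NOD placebo pools and 11263 to 22184 with T. On CL the sums were 41.5 to 52.9, 33.8 to 38.4, 29.0 to 35.3 and 48.7 to 67.3. The lowest sums were in NOD placebo pools, which overlapped MRL/lpr T pools on CL but not on Affy. Ptprc (CD45), common to leukocytes, read 1.12, 0.879 and 1.20 in NOD placebo pools and 4.05, 6.12 and 4.31 in NOD T pools on CL. On Affy it read 886, 687 and 1274 and 1535, 7304 and 5088. NOD T pool 1 was the lowest of its group for Ptprc on both platforms. It was also the lowest for Psmb8, Psmb10 and Psme1 on both platforms, and for Psmb9 on CL. The same held for the Psme2 and Psme2b probe set, read on Affy only. For Psmb9 on Affy, NOD T pool 1 was the highest of its group. A low rank of this pool was not particular to the induced subunits. Among the others it was the lowest for some, such as Psmb5 and Psmb7 on both platforms. For some it was the highest, such as Psmb6 and Psmd6 on Affy. In NOD placebo pools, 7 of the 12 CL markers and 2 of the 17 Affy markers were at or near background, Ptprc on CL among them, while Psmb8, Psmb9, Psmb10 and Psme1 were not near background in any group. The part of leukocyte content in the subunit differences was not tested. Of 12 lacrimal epithelium markers, with T in NOD none of 9 tested on CL rose and 2 fell, and 1 of 12 on Affy rose and 6 fell.

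**Figure D5:**
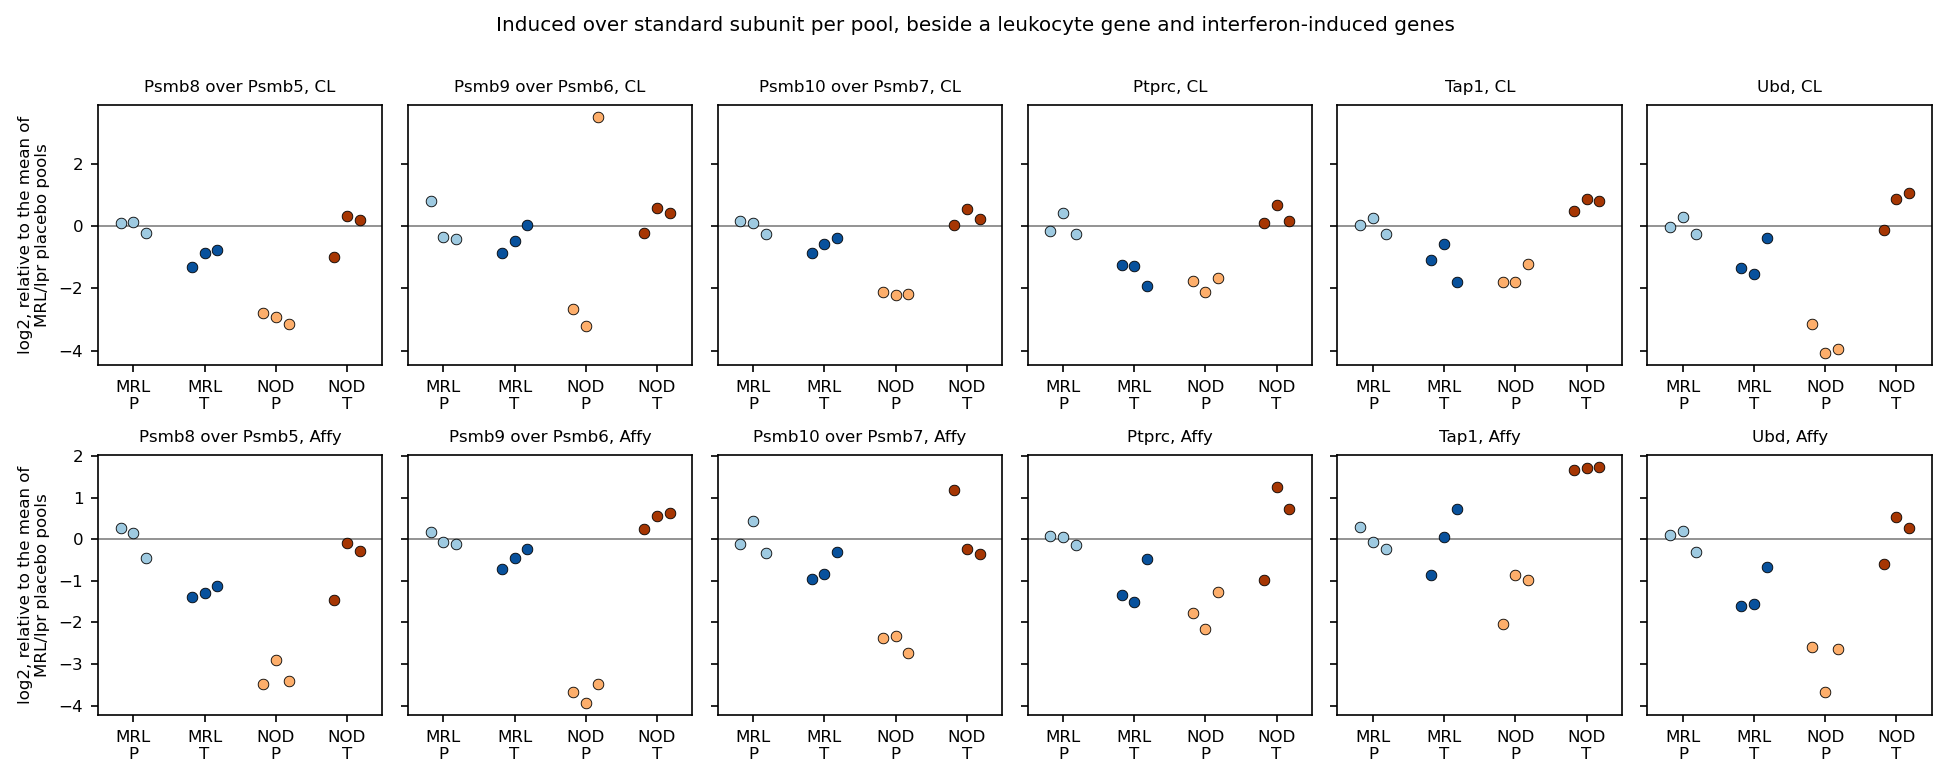
Log2 ratio of each induced subunit over the standard subunit it replaces, and log2 signal of Ptprc, Tap1 and Ubd, in each pool (points) relative to the mean of the MRL/lpr placebo pools (line at 0); P is placebo. NOD placebo pools are low throughout, apart from pool 3 for Psmb9 over Psmb6 on CL at 3.50, and NOD T pools lie nearer to 0 or above it.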

How the data were processed

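RNA of 12 lacrimal gland pools was hybridised to CL and to Affy arrays, 24 arrays in all. The deposited intensities on CL are spots less their local background, expressed by the authors' software relative to the median spot of the array. The deposited Affy intensities are probe set signals, not on the stated trimmed mean of 500, so each array was scaled to it after trimming 2% at each end. 455 CL spots of poor quality were left out. Signals were floored (0.5 on CL, 70.5 on Affy, which is 0.5 of the platform median), log2 transformed and kept where at least 1 group mean exceeded the floor. All 12 arrays of a platform were fitted with 4 group means in limma 3.58.1 (R 4.3.3; eBayes with an intensity trend), with Benjamini-Hochberg adjustment over 13616 CL probes (13615 in contrasts with NOD T) and 17891 Affy probes. The script was tested on simulated data. Tables used scipy 1.17.1, numpy 2.4.6 and pandas 2.3.3 under Python 3.11.15. Groups came from the sample labels, which do not say whether pools were separate cohorts of mice, so p-values measure only the spread between pools. No column was left unused (0) and none held the authors' own comparisons.

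Named were the induced and standard catalytic subunits, Psme1 to Psme4, up to 5 called members in each direction per comparison, and members whose probes disagree. Psmd11 in the closing section, Psmc5 and Psmd8 were named after their values were seen. Lists covered proteasome assembly and control, interferon-induced partners, and leukocyte, lacrimal epithelium, adipose, muscle and salivary markers. Members and lists were chosen with earlier results of these data known. Gene symbols came from platform annotation. The alternatives were other floors, no filter, quantile, normexp and other scalings, the methods' t-test, no trend, pairs of groups fitted alone, means over probes, a replicate block and leaving out each pool.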

Additional observations from a re-analysis of the deposited data

Results flagged for a closer look

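The T response of 5 members differed between the strains by the test of the difference itself, the T effect in NOD minus that in MRL/lpr on the log2 scale (limma, Benjamini-Hochberg adjusted p under 0.05). On CL it was 3.10 for Psmb8, 3.37 for Psmb9 and 2.37 for Psmb10. On Affy it was 3.54 for Psmb8, 4.46 for Psmb9, 2.58 for Psmb10 and 2.14 for Psme1. In each of these the signal rose with T in NOD and was lower with T in MRL/lpr mice.

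A less bright Affy probe set of Psmd11, a lid subunit, differed the other way, by -1.27 (adjusted p = 0.0167). It read 573, 777 and 773 in MRL/lpr placebo pools, 899.6, 1218 and 1185 in MRL/lpr T pools, 1197, 1234 and 1283 in NOD placebo pools and 806, 735 and 868 in NOD T pools. The brightest Psmd11 probe set had an interaction of -0.07 (adjusted p = 0.944).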

How the results depend on the processing

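Of the induced subunits' results, in NOD with T 115 of 120 alternatives on Affy and 88 of 92 on CL kept direction and side of the threshold, as did 104 of 105 and 77 of 80 for the difference between strains and 112 of 120 and 89 of 92 for the strain difference under placebo. In MRL/lpr with T these were 101 of 120, with 14 calls lost and 5 gained, and 92 of 92. For other subunits called in NOD with T, only 87 of 144 on Affy and 48 of 92 on CL did. The cause was not tested. Deviations of same-numbered pools from their group means correlated at -0.071 to 0.106 over all probes tested. The labels do not say that such pools share anything, and these correlations cannot settle it. With a replicate block, 4 subunit genes in place of 7 were called on CL in NOD with T. Array number and signal over background limit precision, and 47.1 to 60.9% of CL probes were near background.

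In NOD with T on CL, 7 subunit genes were called, against 4 after quantile normalization, with normexp, with a floor at 0.1, and with pairs of groups fitted alone, and 16 by the methods' t-test and 2 by it after Benjamini-Hochberg adjustment. On Affy, 10 were called, against 4 with pairs of groups fitted alone or signals as deposited, 6 without a trend or with a common median, and 2 by the adjusted t-test. In MRL/lpr with T on CL, none was called and 3 by the unadjusted t-test. On Affy, 4 were called, against 11 with pairs of groups alone, 2 without a trend, 1 with a common median, 0 with signals as deposited, and 15 and 0 by the t-test without and with adjustment. Between strains under placebo, 4 were called on CL, against 7 and 1 by the t-test without and with adjustment. On Affy 5 were called, against 8 with pairs alone, 1 with signals as deposited, and 11 and 1 by the t-test. Under T on CL, 1 was called, against 2 after quantile normalization or normexp and 7 and 0 by the t-test. On Affy 0 were called, against 1 with a doubled floor, 4 for means over probes, 3 with a common median, 36 with signals as deposited and 3 by the unadjusted t-test. With signals as deposited, Psmb6 (0.082) and Psmd12 (0.089) in NOD with T and the Psme2 and Psme2b probe set under T (1.31) changed sign.

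Leaving out each pool gave 3 to 8 called on CL and 4 to 16 on Affy in NOD with T, 0 to 0 and 1 to 10 in MRL/lpr, 3 to 4 and 4 to 5 for the difference between strains, 4 to 4 and 5 to 7 between strains under placebo, and 1 to 1 and 0 to 6 under T. Without NOD T pool 1, 4 were called on CL and 16 on Affy in NOD with T, 10 on Affy in MRL/lpr with T, through the shared estimate of the spread, and 6 on Affy between strains under T. Without MRL/lpr placebo pool 1, 2 were called on Affy in MRL/lpr.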

Other observations

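Psmc3ip, which acts in meiotic recombination and is not a subunit, was higher in NOD than in MRL/lpr glands. Its Affy signal was 732, 673 and 659.6 in NOD placebo pools against 86.7, 35.7 and 68.6 in MRL/lpr placebo pools. Of these MRL/lpr pools 2 of 3 were below the floor, so no fold is given. On CL it read 2.04, 2.24 and 3.42 in NOD and was near background in all MRL/lpr pools, at least 2.55-fold higher in NOD. Psme3ip1 was near background on CL and not called on Affy in any comparison.

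Of the adipose markers, 3 were tested on CL, of which 1 rose and 1 fell with T in NOD and all 3 were lower in NOD than in MRL/lpr under placebo. On Affy, of 3 tested, 1 was lower in NOD under placebo and the T effect in NOD was called for 0. Muscle markers had no call. Salivary markers had 1 call, lower in NOD than in MRL/lpr under T on Affy.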
